A study of Mus musculus with 6 samples.

Results

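The genes described are the 3 D-type cyclins (Ccnd1, Ccnd2, Ccnd3), their kinase partners Cdk4 and Cdk6, and 5 CDK inhibitors (Cdkn1a, Cdkn1b, Cdkn2a, Cdkn2c, Cdkn2d). They were taken by exact gene symbol, and all 10 were found among the 27763 gene rows of the deposited table. Poly(A) RNA was sequenced from splenic natural killer (NK) cells labelled DN NK (3 libraries) and cNK (3 libraries). All libraries came from mice of strain C57BL/6, wild type in genotype and 6 weeks old. The labels spell out neither group name and give no surface markers for the sort. Whether each library is a separate animal is not stated, and p-values therefore reflect only the spread between these libraries, which may be technical. The series title concerns an immature NK subset resident in the spleen and the dependence of its maturation on T-bet.

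D-type cyclins bind and activate CDK4 and CDK6 in the G1 phase of the cell cycle, and these kinases begin the phosphorylation of the retinoblastoma protein that releases E2F factors for S phase entry. The INK4 inhibitors of the set, encoded by Cdkn2a, Cdkn2c and Cdkn2d, bind CDK4 and CDK6 and keep D cyclins off. The CIP/KIP inhibitors of the set, p21 (Cdkn1a) and p27 (Cdkn1b), act mainly on CDK2 complexes and can also hold cyclin D complexes together. The INK4 gene Cdkn2b and the CIP/KIP gene Cdkn1c are not in the set, so INK4 and CIP/KIP values below cover only the members named. Lymphocytes rely mostly on cyclins D2 and D3, which are induced by cytokine and antigen receptor signals.

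The 250 bases before a start site are shown for Cdkn1a and Cdkn2c, which changed most, for Cdkn2d, the main INK4 transcript of the set, and for Cdk4, whose window holds 4 copies of 1 motif. Cdkn1a and Cdkn2c have 2 RefSeq starts each, and 1 is shown. RefSeq promoters on GRCm38.p6 matched 8 of the 10 members with 12 start sites, and the deposited values are per gene, so the start site in use is not known here. Capitals mark every match on either strand of the GC box (GGGCGG), the CCAAT box (CCAAT), the E-box (CACGTG), an E2F site (TTTCCCGC, TTTGGCGC, TTTCGCGC or TTTGCCGC), a STAT site (TTCNNNGAA), a forkhead site (GTAAACA) and a T-box site (AGGTGTGA). The E-box and the STAT site read the same on both strands, and no matches in the windows shown overlap.
Cdk4, chr10:127063285-127063534, plus strand: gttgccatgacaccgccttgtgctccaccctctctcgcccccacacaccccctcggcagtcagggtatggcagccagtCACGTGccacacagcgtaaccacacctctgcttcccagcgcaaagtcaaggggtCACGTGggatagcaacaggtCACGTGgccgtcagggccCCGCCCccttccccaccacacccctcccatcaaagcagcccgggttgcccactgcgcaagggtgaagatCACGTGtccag
Cdkn1a, chr17:29093519-29093768, plus strand: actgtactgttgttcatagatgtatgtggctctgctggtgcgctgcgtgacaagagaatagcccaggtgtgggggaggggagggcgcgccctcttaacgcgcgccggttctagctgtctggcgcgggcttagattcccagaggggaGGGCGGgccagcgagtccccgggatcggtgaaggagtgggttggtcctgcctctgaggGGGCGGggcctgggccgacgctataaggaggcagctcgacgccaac
Cdkn2c, chr4:109666757-109667006, minus strand: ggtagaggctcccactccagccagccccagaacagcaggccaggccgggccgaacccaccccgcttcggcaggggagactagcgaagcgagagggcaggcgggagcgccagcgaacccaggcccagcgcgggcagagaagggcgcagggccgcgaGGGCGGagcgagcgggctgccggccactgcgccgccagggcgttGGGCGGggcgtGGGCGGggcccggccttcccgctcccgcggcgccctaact
Cdkn2d, chr9:21291210-21291459, minus strand: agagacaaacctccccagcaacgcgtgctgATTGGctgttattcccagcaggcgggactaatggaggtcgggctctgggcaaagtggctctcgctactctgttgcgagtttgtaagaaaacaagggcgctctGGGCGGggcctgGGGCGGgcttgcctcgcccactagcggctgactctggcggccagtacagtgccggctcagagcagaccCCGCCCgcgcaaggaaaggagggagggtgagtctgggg

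The Cdk4 window holds 4 E-boxes, the core bound by Myc and related factors, beginning at bases -172, -118, -98 and -11 from the start site. Of all 32851 RefSeq windows of this length, 6.02% hold at least 1 E-box, and of the 12 member windows 2 do, the other being that of Cdk6 with 1. The windows shown for Cdkn2c and Cdkn2d hold 3 GC boxes each and that for Cdkn1a holds 2. A GC box occurs in 8 of the 12 member windows and in 32.7% of all windows, a CCAAT box in 3 of the 12 and in 33.8% of all. The windows shown are rich in G and C, at 64.4% for Cdk4, 64.8% for Cdkn1a, 77.2% for Cdkn2c and 63.6% for Cdkn2d, against a median of 52.4% over all windows. The windows of the other starts, not shown, are at 54% for Cdkn1a and 42.8% for Cdkn2c and hold no match of any of these motifs. No member window holds a STAT match (7.02% of all windows) or a T-box match (1.12% of all). An E2F match lies in 1 Cdkn2a window (1.86% of all) and a forkhead match in 1 Ccnd3 window (3.17% of all). These are letters in a window and show neither binding nor use.

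Estimated counts per library summed to between 79798234 and 81437724 in DN NK and between 84270567 and 89526647 in cNK, with 1 read pair worth about 3.76 estimated counts. NK identity was checked with 10 NK marker genes, all of which averaged at least 1 FPKM in both groups. Their summed FPKM (fragment counts divided by transcript length and by depth) was 3062 to 3560 in DN NK and 8329 to 9015 in cNK. Ncr1, the NKp46 gene, lay at 180 to 224 FPKM in DN NK and at 345 to 433 FPKM in cNK. Markers of other cells moved with the groups. The number averaging at least 1 FPKM was 9 in DN NK and 1 in cNK of 12 B cell markers, 8 in DN NK and 6 in cNK of 14 T cell markers, and 6 in DN NK and 2 in cNK of 11 ILC2 and ILC3 markers. It was 4 in DN NK and 2 in cNK of 6 plasma cell markers, and in both groups 2 of 9 myeloid and 5 of 8 erythroid markers. The B cell set summed to 42.3 to 55.9 FPKM in DN NK and 2.71 to 3.24 FPKM in cNK. The T cell set summed to 651 to 688 FPKM in DN NK and 503 to 520 FPKM in cNK. Most of that sum was Trbc1, at 412 to 436 FPKM in DN NK and 351 to 368 FPKM in cNK. The defining chain Cd3e lay at 0.727 to 0.971 FPKM in DN NK and 0.00899 to 0.0465 FPKM in cNK. Cd3d lay at 37.7 to 39.4 FPKM in DN NK and 4.18 to 4.90 FPKM in cNK. Cd4 lay at 3.18 to 3.72 FPKM in DN NK and 0 to 0.0388 FPKM in cNK. Lef1 was the 1 tested T cell marker called lower, at 2.67 to 2.99 FPKM in DN NK and 5.20 to 5.39 FPKM in cNK. The ILC set, with Il22 at 0 in all cNK libraries, summed to 60.3 to 65.5 FPKM in DN NK and 17.0 to 18.9 FPKM in cNK, and the plasma cell set to 42.4 to 49.3 FPKM in DN NK and 23.6 to 24.9 FPKM in cNK. The myeloid set summed to 125 to 137 FPKM in DN NK and 188 to 202 FPKM in cNK, with Csf1r under 1 FPKM in all libraries. Most of that sum was Itgax, at 119 to 131 FPKM in DN NK and 182 to 195 FPKM in cNK. Cd68 lay at 4.19 to 5.35 FPKM in DN NK and 5.51 to 6.07 FPKM in cNK and did not pass (adjusted p = 0.201, edgeR). Lyz2 went the other way, at 0.787 to 1.18 FPKM in DN NK and 0.0887 to 0.548 FPKM in cNK. S100a8 and S100a9 were at 0 in all cNK libraries and at most 0.309 FPKM in DN NK. The erythroid set summed to 57.7 to 76.2 FPKM in DN NK and 46.3 to 54.1 FPKM in cNK. The part of such cells in the values below was not tested, and in bulk samples fewer cells of a type and less RNA per cell cannot be told apart.

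Setting DN NK against cNK shows how transcripts of the G1 machinery differ between these NK cells. In DN NK, transcripts of cyclin D2, CDK4 and the INK4 inhibitors p18INK4c and p19INK4d were lower, while p21 and CDK6 were higher. The largest changes were in inhibitors and went opposite ways, with Cdkn1a 2.53-fold higher and Cdkn2c 2.53-fold lower. Of the 8 members that passed the filter, 3 were higher, 4 were lower and 1 (Ccnd3) did not pass an adjusted p of 0.05, with a median log2 fold change of -0.38 against -0.016 over all rows tested. Over the 11690 rows tested, 61.7% were called, 30.8% higher and 30.9% lower in DN NK, so a call is common here and the count of called members is not a result about them. Each fold change and adjusted p is from the quasi-likelihood test of edgeR, with Benjamini-Hochberg adjustment over all rows tested. A row was tested where 3 or more of the 6 libraries reached 1 FPKM, and the 8 members that passed did so in all 6. Ccnd1 and Cdkn2a lay below it and were read from a fit without a filter, in which 31.3% of 27763 rows were called (15.3% higher and 16.0% lower in DN NK). In 6 of the 8 members the FPKM values of the groups did not overlap, against 70.3% of all rows tested. The plot of FPKM by member and library shows these values.

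**Figure D1:**
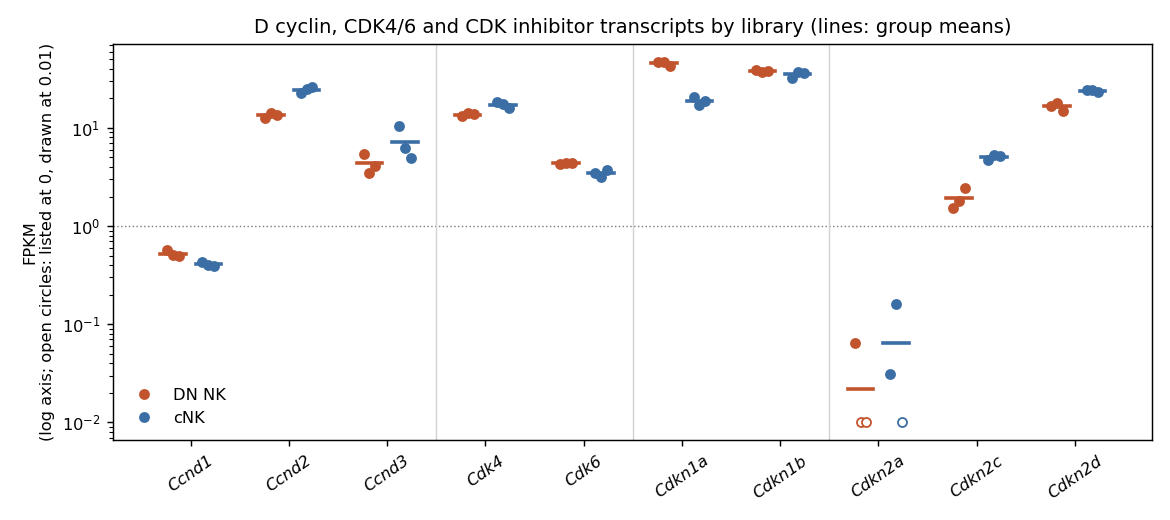
FPKM on a log axis for each member and library, with DN NK left of cNK, points for libraries, short lines for group means, a dotted line at 1 FPKM and open circles for libraries listed at 0. Cdkn1a stands higher in all DN NK libraries, Ccnd2, Cdk4, Cdkn2c and Cdkn2d stand lower, and Ccnd3, Cdkn1b and Cdkn2a overlap.

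Ccnd2, which encodes cyclin D2, was the main D cyclin transcript in both groups. Ccnd2 (ENSMUSG00000000184, chromosome 6, 127125162 to 127152193, minus strand, GRCm38) had 12.6, 14.1 and 13.6 FPKM in DN NK and 22.5, 25.0 and 26.1 FPKM in cNK. Every DN NK library lay below every cNK library, with a gap wider than the spread within either group. The log2 fold change of Ccnd2 was -0.80 (SE 0.06, adjusted p = 1.04e-05, edgeR), that is 1.75-fold lower in DN NK. Ccnd2 overlaps 2 antisense genes, of which 9330179D12Rik reached at most 0.622 FPKM in any library and Gm43126 at most 0.0515 FPKM.

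Ccnd3, which encodes cyclin D3, had the widest interval of the tested members. Ccnd3 (ENSMUSG00000034165, chromosome 17, 47505051 to 47599691, plus strand) had 5.46, 3.50 and 4.05 FPKM in DN NK and 10.5, 6.20 and 4.94 FPKM in cNK. The groups overlapped, since DN NK replicate 1 lay above cNK replicate 3, and cNK replicate 1 stood far above the other cNK libraries. The log2 fold change of Ccnd3 was -0.67 (SE 0.37, 95% interval -1.64 to 0.29, adjusted p = 0.175, edgeR), an interval that holds both 0 and the value of Ccnd2. Without cNK replicate 1 it was -0.28 (adjusted p = 0.358, edgeR). The row lists 21 transcripts, more than any other member. It shares 361 bases with Bysl on the opposite strand, which had 10.1, 10.8 and 10.5 FPKM in DN NK and 6.82, 5.82 and 5.88 FPKM in cNK. The library kit does not mark strand, so reads in the shared stretch cannot be assigned. The Ccnd3 pseudogene row Ccnd3-ps stayed at or below 0.138 FPKM in all libraries.

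Ccnd1, which encodes cyclin D1, the D cyclin of many non-lymphoid cells, was scarce in both groups. Ccnd1 (ENSMUSG00000070348, chromosome 7, 144929931 to 144939925, minus strand) had 0.570, 0.507 and 0.500 FPKM in DN NK and 0.426, 0.402 and 0.393 FPKM in cNK, about 47.9 to 67.8 read pairs a library. The 3 DN NK libraries lay above the 3 cNK libraries by a narrow margin. The log2 fold change was 0.37 (SE 0.18, 95% interval -0.018 to 0.75) and missed the threshold in the edgeR fit without a filter (adjusted p = 0.152), whereas limma on log2(FPKM + 1) called it at adjusted p = 0.0210. Ccnd1 shares 1771 bases with LTO1 on the opposite strand, which had 1.53 to 1.84 FPKM in DN NK and 1.80 to 2.17 FPKM in cNK.

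Summed over the 3 D cyclins, FPKM came to 18.7, 18.1 and 18.1 in DN NK and 33.5, 31.6 and 31.4 in cNK. The shares of Ccnd2 and Ccnd3 in that sum overlapped between the groups. Ccnd2 gave 67.7, 77.9 and 74.9% of it in DN NK and 67.3, 79.1 and 83.0% in cNK, and Ccnd3 gave 23.6 ± 5.10% in DN NK and 22.3 ± 8.18% in cNK (SD, n = 3 each). Ccnd1 gave 2.75 to 3.05% in DN NK and 1.25 to 1.27% in cNK, without overlap.

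The kinase partners went opposite ways. Cdk4 (ENSMUSG00000006728, chromosome 10, 127063534 to 127067920, plus strand) had 13.1, 14.1 and 13.9 FPKM in DN NK and 18.3, 17.4 and 16.1 FPKM in cNK. All DN NK libraries were below all cNK libraries, and the log2 fold change of Cdk4 was -0.28 (SE 0.07, adjusted p = 0.00624, edgeR). This is the promoter with 4 E-boxes printed above. Cdk4 shares 641 bases with Tspan31 on the opposite strand, which had 2.62 to 3.47 FPKM in DN NK and 0.867 to 1.07 FPKM in cNK, so the stretch that cannot be assigned belongs to a gene that was higher in DN NK.

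Cdk6 (ENSMUSG00000040274, chromosome 5, 3341485 to 3531008, plus strand) had 4.32, 4.40 and 4.42 FPKM in DN NK and 3.45, 3.17 and 3.73 FPKM in cNK. The DN NK libraries were close together and above every cNK library, and the log2 fold change was 0.41 (SE 0.07, adjusted p = 0.000886, edgeR). Its 2 overlapping antisense genes stayed below 0.1 FPKM in all libraries. Cdk4 remained the more abundant kinase transcript per length, with a Cdk4 to Cdk6 ratio of FPKM of 3.03, 3.20 and 3.14 in DN NK and 5.31, 5.50 and 4.33 in cNK. Cdk6 thereby made up 24.3 ± 0.520% of the summed kinase FPKM in DN NK and 16.7 ± 1.84% in cNK (SD, n = 3 each).

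**Figure D2:**
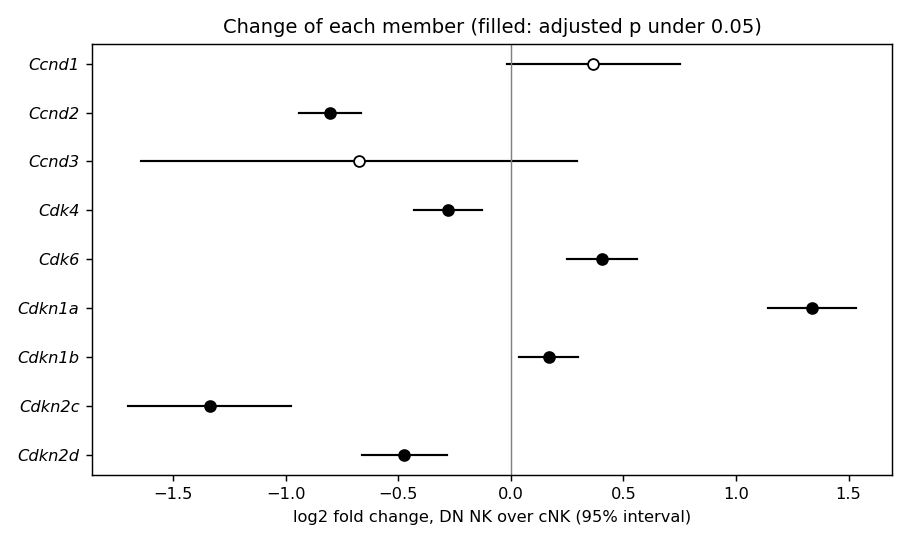
Log2 fold change of DN NK over cNK with its 95% interval from edgeR for 9 members, filled where adjusted p was under 0.05. Cdkn1a lies at 1.34 and Cdkn2c at -1.34, the interval of Ccnd3 is the widest, and Cdkn2a is left out because it lay near the detection floor.

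Cdkn1a, which encodes p21, a CIP/KIP inhibitor induced by p53 and by several differentiation and cytokine signals, had the largest rise of the set. Cdkn1a (ENSMUSG00000023067, chromosome 17, 29090979 to 29100722, plus strand) had 46.9, 46.6 and 42.7 FPKM in DN NK and 20.4, 17.0 and 18.7 FPKM in cNK. The lowest DN NK library stood well above the highest cNK library. The log2 fold change of Cdkn1a was 1.34 (SE 0.08, adjusted p = 4.77e-06, edgeR), and 7.50% of rows tested had a larger change in size. Its mean level was above that of 91.4% of rows tested in DN NK and of 77.9% in cNK. Cdkn1a shares 1046 bases with AC167363.2 on the opposite strand, a gene not analysed here.

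Cdkn1b, which encodes p27, a CIP/KIP inhibitor of resting lymphocytes, was abundant in both groups and differed little. Cdkn1b (ENSMUSG00000003031, chromosome 6, 134920401 to 134925513, plus strand) had 38.8, 37.0 and 38.3 FPKM in DN NK and 32.1, 37.3 and 36.6 FPKM in cNK. The groups overlapped, and cNK replicate 1 was the one low library. The log2 fold change of Cdkn1b was 0.17 (SE 0.06, adjusted p = 0.0306, edgeR), a rise that passed the test by little. The call was lost in 8 of 15 alternatives (adjusted p from 0.0212 to 0.240 over all 15), among them the edgeR fits without DN NK replicate 1, 2 or 3 (adjusted p = 0.106, 0.0571 and 0.0679) and without cNK replicate 1 (adjusted p = 0.0681).

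The order of these CIP/KIP transcripts was reversed between the groups. The ratio of Cdkn1a to Cdkn1b FPKM was 1.21, 1.26 and 1.12 in DN NK and 0.636, 0.455 and 0.511 in cNK, so p21 transcripts were the more abundant per length in each DN NK library and p27 transcripts in each cNK library. Cdkn1a made up 43.4 to 45.2% of the summed inhibitor FPKM in DN NK and 20.2 to 25.0% in cNK. Cdkn1b made up 35.7 to 38.9% in DN NK and 39.3 to 44.3% in cNK.

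The INK4 transcripts Cdkn2c and Cdkn2d were lower in DN NK. Cdkn2c, which encodes p18INK4c, is expressed in lymphocytes and limits their proliferation in mice. Cdkn2c (ENSMUSG00000028551, chromosome 4, 109660876 to 109667189, minus strand) had 1.52, 1.81 and 2.42 FPKM in DN NK and 4.73, 5.30 and 5.14 FPKM in cNK. The groups stood apart, though the DN NK libraries differed among themselves, with replicate 3 the highest. The log2 fold change of Cdkn2c was -1.34 (SE 0.16, adjusted p = 0.000125, edgeR).

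Cdkn2d, which encodes p19INK4d, was the main INK4 transcript of the set. Cdkn2d (ENSMUSG00000096472, chromosome 9, 21288410 to 21291407, minus strand) had 16.5, 18.1 and 15.0 FPKM in DN NK and 24.4, 24.4 and 23.1 FPKM in cNK. All DN NK libraries were below all cNK libraries, and the log2 fold change was -0.47 (SE 0.08, adjusted p = 0.00119, edgeR). The promoters of both genes, printed above, hold 3 GC boxes each in the windows shown. The ratio of Cdkn2d to Cdkn2c FPKM was 10.9, 9.99 and 6.18 in DN NK and 5.16, 4.60 and 4.50 in cNK, without overlap.

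Cdkn2a, whose locus encodes p16INK4a and, in another reading frame, p19ARF, was barely detected. Cdkn2a (ENSMUSG00000044303, chromosome 4, 89274471 to 89294653, minus strand) had 0.0651, 0 and 0 FPKM in DN NK and 0.0315, 0.162 and 0 FPKM in cNK. This is about 2 read pairs over the DN NK group and 6 over the cNK group, where the floor is 3 read pairs. The ratio of DN NK over cNK was 0.358, with an exact 95% binomial interval of 0.0354 to 2.00 that covers counting error only, so a difference was not detectable at this depth.

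Taking the 5 inhibitors together, their CIP/KIP and INK4 members moved apart. The summed FPKM of the 5 inhibitors was 104, 103 and 98.3 in DN NK and 81.7, 84.1 and 83.6 in cNK. The ratio of summed INK4 FPKM to that of Cdkn1a and Cdkn1b was 0.212, 0.239 and 0.215 in DN NK and 0.555, 0.550 and 0.511 in cNK. Set against the D cyclins, summed inhibitor FPKM was 5.56, 5.71 and 5.42 times summed D cyclin FPKM in DN NK and 2.44, 2.66 and 2.66 times in cNK. On the estimated counts, which are not scaled to transcript length, this ratio averaged 1.82 in DN NK and 0.858 in cNK. Over all 10 members the summed FPKM was nearly level, at 135 to 140 in DN NK and 135 to 137 in cNK. These sums over chosen members are descriptions and were not tested.

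**Figure D3:**
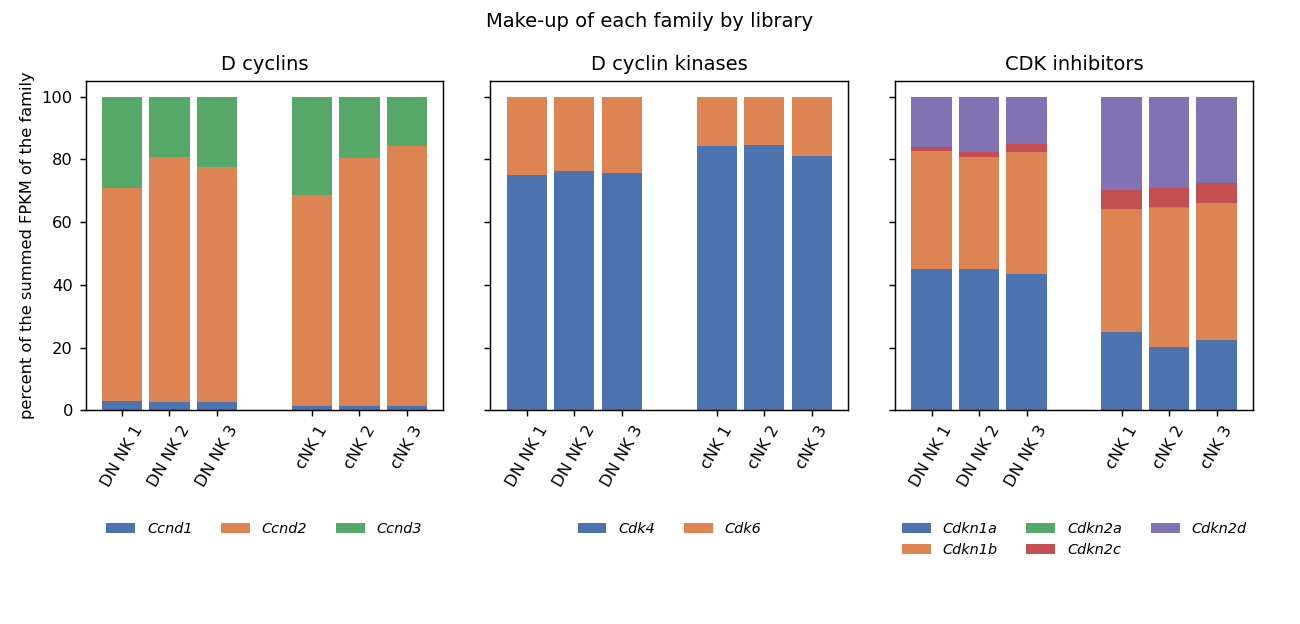
Percent of the summed FPKM of each family given by each member, 1 stacked bar a library, with the DN NK libraries left of the cNK libraries. Cdkn1a takes 43.4 to 45.2% of the inhibitor sum in DN NK and 20.2 to 25.0% in cNK, while the shares of Ccnd2 and Ccnd3 overlap.

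**Figure D4:**
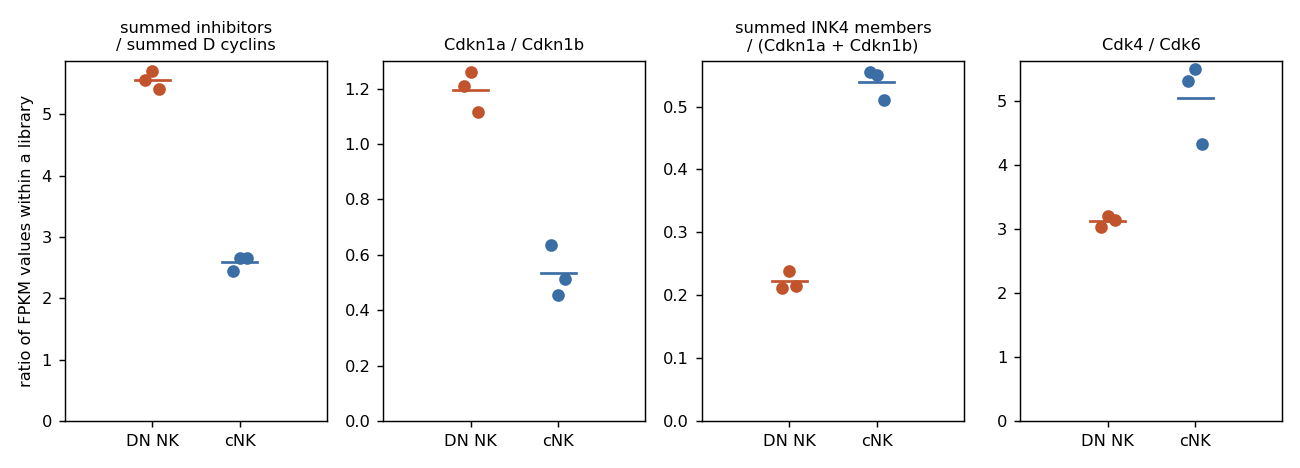
FPKM ratios within each library, with points for libraries and lines for group means, on axes that start at 0. The inhibitor to D cyclin ratio and the Cdkn1a to Cdkn1b ratio are higher in DN NK. The ratio of INK4 to CIP/KIP members and the Cdk4 to Cdk6 ratio are lower, with no overlap in any of the panels.

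In order of mean FPKM, DN NK had Cdkn1a (45.4), Cdkn1b (38.0), Cdkn2d (16.5), Cdk4 (13.7), Ccnd2 (13.4), Cdk6 (4.38), Ccnd3 (4.34), Cdkn2c (1.92), Ccnd1 (0.525) and Cdkn2a (0.0217). In cNK the order was Cdkn1b (35.3), Ccnd2 (24.5), Cdkn2d (24.0), Cdkn1a (18.7), Cdk4 (17.3), Ccnd3 (7.22), Cdkn2c (5.06), Cdk6 (3.45), Ccnd1 (0.407) and Cdkn2a (0.0644). Neighbours whose libraries overlapped were Cdk4 with Ccnd2 and Cdk6 with Ccnd3 in DN NK. In cNK they were Ccnd2 with Cdkn2d, Cdkn1a with Cdk4, and Ccnd3 with Cdkn2c. No other neighbouring pair overlapped in its group.

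Other genes of G1 to S phase control are given against the same background, in which 61.7% of rows tested were called, 30.8% higher and 30.9% lower in DN NK, so that list counts near these shares say nothing particular to a list. Of 14 genes of cyclin E, CDK2, the pocket proteins and E2F factors, all tested, 3 were higher, 5 were lower and 6 did not pass, with a median log2 fold change of 0.028. Ccne1 (cyclin E1), whose complexes with CDK2 are targets of p21 and p27, was 2.13-fold lower at 1.60 ± 0.348 FPKM in DN NK against 3.56 ± 0.365 FPKM in cNK (SD, n = 3 each; adjusted p = 0.000579, edgeR), while its sister gene Ccne2 rose 1.37-fold. Ccne2 shares 5622 bases with Ints8 on the opposite strand, which averaged 8.20 FPKM in DN NK and 7.40 FPKM in cNK. Cdk2, the kinase partner of both, was 2.50-fold higher at 4.62 ± 0.238 FPKM in DN NK against 1.93 ± 0.417 FPKM in cNK (adjusted p = 9.42e-05, edgeR). Cdk2 shares 837 bases with Pmel on the opposite strand, which averaged 1.75 FPKM in DN NK and 0.486 FPKM in cNK. E2f2, an E2F factor, had 1.35, 1.65 and 1.49 FPKM in DN NK and 5.66, 6.53 and 5.79 FPKM in cNK, a log2 fold change of -1.94, and Rbl1, the pocket protein p107, had one of -0.78. Rb1, the retinoblastoma gene, was lower at 7.39 ± 0.429 FPKM in DN NK and 8.84 ± 0.425 FPKM in cNK (adjusted p = 0.0282, edgeR), a call lost without DN NK replicate 2 or 3 or cNK replicate 2 or 3 (adjusted p = 0.0929, 0.0853, 0.0882 and 0.0605). Rb1 shares 24171 bases with Rcbtb2 on the opposite strand, at 1.93 FPKM in DN NK and 1.82 FPKM in cNK, and 5400 with Lpar6, at 3.40 FPKM in DN NK and 2.89 FPKM in cNK. Rbl2, the pocket protein p130 of resting cells, was the most abundant of the list at 27.6 ± 1.18 FPKM in DN NK and 27.9 ± 2.29 FPKM in cNK and did not pass (log2 fold change 0.047). Rbl2 shares 12061 bases with Aktip, at 0.999 FPKM in DN NK and 1.33 FPKM in cNK, and 2910 with Gm45464, at 1.40 FPKM in DN NK and 1.05 FPKM in cNK.

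Other CDK inhibitors and genes of inhibitor turnover gave 5 higher, 4 lower and 4 not past among 13 tested of 15 in the table, with a median of 0.17, against 30.8% higher and 30.9% lower over all rows tested. Without a filter 3 were higher. Cdkn1c, the CIP/KIP gene outside the set, was higher at 1.39 FPKM in DN NK against 1.02 FPKM in cNK (adjusted p = 0.0224, edgeR). Cdkn2b, the INK4 gene outside the set, did not pass the filter. Cdkn3, a phosphatase that acts on CDK2, was 6.49-fold lower at 0.313 ± 0.159 FPKM in DN NK against 2.16 ± 0.0847 FPKM in cNK, a value that passed the filter through cNK alone. Dtl, which brings p21 to a CUL4 ubiquitin ligase, rose 1.94-fold to 2.28 ± 0.174 FPKM in DN NK, against 1.23 ± 0.0524 FPKM in cNK. Rbx1, the RING subunit of cullin ligases, and Cks1b, which helps SKP2 bind p27, fell, with log2 fold changes of -0.77 and -0.69. Cks2 was the most abundant member of this list and did not pass, with a log2 fold change of 0.083. The snoRNA gene Gm22806 lies within Cks2 on the same strand and averaged 10.7 FPKM in DN NK and 8.13 FPKM in cNK.

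Genes of D cyclin turnover, CDK activation and chaperoning gave 4 higher, 5 lower and 2 not past among 11, with a median of -0.15, against the same 30.8% higher and 30.9% lower over all rows. Hsp90ab1, a chaperone that acts with CDC37 on CDK4, rose 1.64-fold to 620 ± 23.7 FPKM in DN NK, against 394 ± 16.5 FPKM in cNK. Cdc37 itself was lower, at 29.8 FPKM in DN NK and 37.0 FPKM in cNK (adjusted p = 0.00106, edgeR). Fbxo31 and Fbxo4, F-box proteins described as ligase subunits for cyclin D1, fell, with log2 fold changes of -0.69 and -0.58, as did Ccnh, the cyclin of the CDK-activating kinase, with -0.51. Ccnh shares 8690 bases with Rasa1 on the opposite strand, which averaged 17.8 FPKM in DN NK and 20.6 FPKM in cNK.

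Among 14 tested of 15 upstream regulators, 8 were higher, 3 were lower and 3 did not pass, with a median of 0.32, against 30.8% higher and 30.9% lower over all rows. Klf4, a factor known to activate Cdkn1a, was 2.26-fold higher at 74.6 ± 3.84 FPKM in DN NK against 34.5 ± 2.91 FPKM in cNK. Zbtb17, the gene of MIZ1, another known activator of Cdkn1a, was 2.16-fold higher at 15.3 ± 0.499 FPKM in DN NK against 7.35 ± 0.714 FPKM in cNK. Stat5a, which acts downstream of interleukin-2 family receptors on Ccnd2, rose 2.04-fold, while Ccnd2 was lower. Stat5a shares 72 bases with Stat3 on the opposite strand, at 58.5 FPKM in DN NK and 19.8 FPKM in cNK, and Zbtb17 shares 41 with Spen, at 6.17 FPKM in DN NK and 7.65 FPKM in cNK. Klf2, a factor of lymphocyte quiescence and egress, was 2.71-fold lower at 57.0 ± 6.39 FPKM in DN NK against 161 ± 17.3 FPKM in cNK. Trp53, the p53 gene, and Mdm2 were among the 8 higher, with log2 fold changes of 0.35 and 0.80. The part of any of these regulators in the member values was not tested.

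Proliferation markers were mostly lower in DN NK, with 14 lower, 1 higher and 4 not past among 19 tested and a median log2 fold change of -0.99, against 30.9% lower and 30.8% higher over all rows. Among the 14 are Ccnb1 (0.489 FPKM in DN NK and 1.24 FPKM in cNK), Cdk1 (0.767 FPKM in DN NK and 1.98 FPKM in cNK) and Tyms (0.744 FPKM in DN NK and 1.18 FPKM in cNK), which averaged under 1 FPKM in DN NK and entered the test through their level in cNK. Mki67, the Ki-67 gene, had 7.46, 8.20 and 8.32 FPKM in DN NK and 16.2, 16.4 and 17.3 FPKM in cNK, and Top2a, topoisomerase II alpha, had 7.07 ± 0.393 FPKM in DN NK and 14.7 ± 0.420 FPKM in cNK. Ccna2, Ccnb2, Birc5 and Plk1, which act in S phase and mitosis, fell, with log2 fold changes of -1.98, -1.96, -1.44 and -1.34. Ccna2 shares 863 bases with Exosc9 on the opposite strand, which averaged 3.36 FPKM in DN NK and 3.90 FPKM in cNK. The 1 higher gene was Pcna, the replication clamp, at 1.17-fold, and 3 were higher with median-ratio factors and 2 without cNK replicate 1. The 4 not past were Mcm2, Mcm3, Mcm4 and Mcm7. Mcm2 and Mcm3 averaged 10.3 and 15.0 FPKM in DN NK and 9.87 and 14.4 FPKM in cNK. Mcm4 and Mcm7 averaged 34.5 and 12.9 FPKM in DN NK and 33.1 and 14.4 FPKM in cNK. Mcm5 and Mcm6 were among the 14 lower, with log2 fold changes of -0.25 and -0.53. Most of the markers moved the same way as Ccnd2, Cdk4, Cdkn2c and Cdkn2d, and their part in the member values was not tested. The plot of log2 fold changes by list shows the tested genes.

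**Figure D5:**
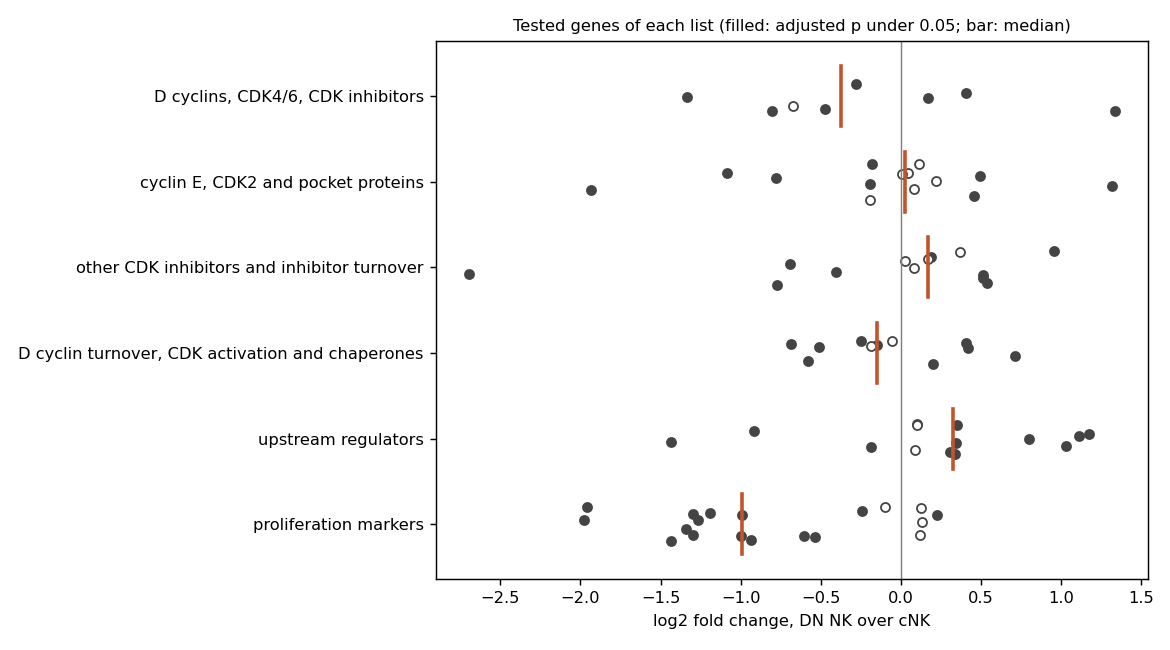
Log2 fold change of DN NK over cNK for each tested gene of the 6 lists, filled where adjusted p was under 0.05, with a bar at each list's median. The proliferation markers centre at -0.99, with Pcna, Mcm2, Mcm3 and Mcm4 above 0, and the other lists also spread to both sides of 0.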

How the data were processed

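Per the labels' protocols, total RNA was extracted with Trizol and poly(A) RNA went into TruSeq RNA v2 libraries, a kit that does not mark strand, sequenced as pairs of 150 bp. HISAT, StringTie and edgeR are the tools in the submitters' processing notes, and GRCm38 is the build; their versions are not given in the sources used here. The deposited table holds FPKM and counts for every gene row and library, per the file headers. The deposited counts are whole numbers, but in rows with 1 transcript 89.2 to 91.3% of values up to 30 are the rounded-up product of FPKM, transcript length and a constant. They were treated as estimated counts made by the authors from coverage, with 1 read pair worth about 3.76, so the floor of 3 read pairs is 11.3 estimated counts. Intervals and floors cover counting error only.

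The rows tested reached 1 FPKM in 3 or more libraries (11690 rows, 99.3% of estimated counts). They were tested with edgeR 4.0.16 in R 4.3.3 (TMM factors 0.972 to 1.03, robust quasi-likelihood, group as the only term, 2-sided). The threshold was an adjusted p of 0.05, and the biological coefficient of variation was 13.5%. SE is the size of the log2 fold change divided by the square root of F. Alternatives used limma 3.58.1, DESeq2 1.42.0, other scalings and filters, and each library left out. The procedure was run on simulated data with far fewer changed rows than were called here, so it was not tested at this share of changes. Spans of 9 of 10 members equal those of GENCODE M21, and the span of Cdkn1a does not. Members and gene lists were chosen with earlier results of these data known. Genes outside the set were named by rule: up to 4 called, non-overlapping genes of each list with the largest change, its most abundant gene, and Mki67, Top2a, Ccne1, Ccne2, Cdk2 and Rb1. Some further list genes were named after the values were seen. Overlapping genes that averaged at least 1 FPKM in either group and cell type markers are given beside the results they touch, and the promoters printed were picked after values and motifs were seen.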

Additional observations from a re-analysis of the deposited data

How the results depend on the processing

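The direction and the call of Ccnd2, Cdk4, Cdk6, Cdkn1a, Cdkn2c and Cdkn2d were the same in each of the 14 or 15 alternatives that could be run for them. The calls over all rows numbered 7215 of 11690 tested. They numbered 4614 of 6801 when only rows averaging 5 FPKM or more were tested, and 6597 to 7044 of 11690 with 1 library left out. Cdkn1b (log2 fold change 0.17) lost its call with upper quartile factors (0.082), limma on log2(FPKM + 1) (0.11) or log2(FPKM + 0.1) (0.11), no filter (0.10) and in 4 of the 6 fits that leave out 1 library. Over all 6 such fits it ran from 0.11 to 0.20, and it was 0.20 and called without cNK replicate 2. Ccnd1 gained a call with limma at pseudocounts of 1 (0.12) and 0.1 (0.30). Cdkn2a changed sign with libraries left out (-5.92 to 0.66). The difference of DN NK minus cNK in the Ccnd2 share of D cyclin FPKM was -2.96 points and ran from -7.55 to 0.323 with libraries left out. On the count columns the difference in the Cdk6 share was 11.8 points and that in the inhibitor to D cyclin ratio 0.966, against 7.60 and 2.97 on FPKM, since counts are not scaled to length. Alternatives for genes and lists outside the set were added after the data were seen. Testing only rows that averaged 5 FPKM or more left 0 higher and 2 lower in the cyclin E list. It left 3 higher in the inhibitor turnover list, 3 lower in the D cyclin turnover list and 6 lower among proliferation markers. In the DESeq2 fit 2 of the proliferation markers were called higher, against 1 in the fit described above. Rbl2 (0.047) changed sign with upper quartile factors (-0.038), limma at pseudocounts of 1 (-0.012) and 0.1 (-0.013), no filter (-0.018) and without cNK replicate 1 (-0.00085, up to 0.10 without others), and Cks2 with upper quartile factors (-0.0025). Deviations of same-numbered libraries of the groups correlated weakly (r of 0.0460, 0.0362 and 0.162), and those of differently numbered libraries ran from -0.0984 to 0.0565. Not every library correlated best with its own number, so these values do not settle whether the numbers pair the libraries. With the replicate number as a block Ccnd3 passed, at a log2 fold change of -0.62 (adjusted p = 0.0244, edgeR), and the calls over all rows numbered 7222. For Cdkn2a, 2 read pairs in DN NK and 6 in cNK limit what can be seen.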
